A study of Mus with 6 samples.

Results

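Transcripts of 10 genes that mark neutrophils, lymphocytes or leukocytes in general were followed in endothelial preparations of the mouse heart that had been sorted against leukocytes. The genes were taken by symbol from the deposited table of 20893 genes: S100a8, S100a9, Retnlg and Csf3r for neutrophils, Cd79a, Cd79b and Ms4a1 for B cells, Cd3e for T cells, and Coro1a and Ptprc for leukocytes of most kinds. All 10 were found. The study sequenced RNA of cardiac microvascular endothelial cells of infarcted hearts, in which the left coronary artery had been tied off. Magnetic beads were used to take cells that carry CD31, the product of Pecam1 on endothelium, and to leave those with CD45, the product of Ptprc on leukocytes. Wild-type (WT) mice gave 3 libraries and Ccl28 knockout (KO) mice another 3, numbered 2, 3 and 4 in both genotypes, and ligation surgery was common to all 6. The genotype field of KO replicates 3 and 4 names Ccl29 and Ccl30, against their titles, and the titles were followed. Strain, sex, age, time after ligation and the way the knockout was made are not given in the sources used here. The labels do not state that each library is a separate animal, and p-values therefore speak only for the spread among these libraries, which may be technical.

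Neutrophils are short-lived phagocytes that reach an infarct early and carry large amounts of S100A8 and S100A9, calcium-binding proteins that pair as calprotectin. B cells sense antigen through an antibody molecule bound to the CD79A and CD79B chains, which pass the signal into the cell, and T cells use the CD3 chains in the same way. CD45 is a phosphatase on nearly all nucleated blood cells, and coronin 1A, encoded by Coro1a, is an actin regulator of blood cells.

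Levels are given as FPKM, fragments per length of transcript and size of library, which allows levels of different genes to be set side by side. Whole reads behind each value were recovered from the deposited tables, and the libraries held 36004457 to 40500067 reads assigned to genes. Ccl28 had 11 to 24 reads in the WT libraries and 0 in each KO library. The endothelial label was borne out by Pecam1, at 561 to 744 FPKM, and by the endothelial cadherin gene Cdh5, at 511 to 781 FPKM. Ptprc lay at 0.871 to 1.71 FPKM, so that Pecam1 exceeded it 407-fold to 773-fold within each library. That ratio rests on 1 leukocyte gene. Lyz2, a monocyte and macrophage gene, lay much higher, at 58.1 to 149 FPKM in WT and 143 to 228 FPKM in KO. Tests were made on log2(FPKM + 1), where the added 1 makes the change of low genes look smaller, and positive fold changes mean more in KO. Genes that reached 1 FPKM in 3 or more libraries entered the limma test, and an adjusted p under 0.05 was called. Changes were common in this comparison: 18.3% of the 10806 tested genes were called higher in KO and 25.8% lower, with 44.2% called in either direction and a median log2 fold change of -0.03. When libraries were scaled by median ratios, 23.8% were called higher and 22.1% lower.

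Of the 10 markers, 7 were tested and 6 of them rose in KO; Ptprc, the gene of the protein sorted against, was the tested marker that was not called. The 6 were S100a8, S100a9, Csf3r, Cd79a, Cd79b and Coro1a, with ratios of mean FPKM from 2.08 to 3.36. In each of these 6 every KO library lay above every WT library, as it did in 22.8% of all tested genes. Csf3r passed the expression filter through its KO libraries alone, so the count over tested markers is in part set by the filter. Retnlg, Ms4a1 and Cd3e were below the filter, and without it they were not called, while 17.4% of all genes were. Averaged over the 6 libraries, S100a9 (16.5 FPKM), Coro1a (13.4 FPKM) and S100a8 (12.6 FPKM) were the highest, followed by Cd79a (7.44 FPKM) and Cd79b (5.26 FPKM). Ptprc and Csf3r lay near 1 FPKM, at 1.19 and 1.12, and Ms4a1, Retnlg and Cd3e below it, at 0.737, 0.516 and 0.223. The authors' deposited table, made from the same libraries, gives the 6 markers folds of 2.18 to 3.51 with q from 6.62e-17 for Coro1a to 9.87e-05 for Csf3r. It gives q = 0.327 for Ms4a1, 0.39 for Cd3e, 0.653 for Retnlg and 0.985 for Ptprc. In these bulk samples more cells of a type and more RNA per cell cannot be told apart.

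**Figure D1:**
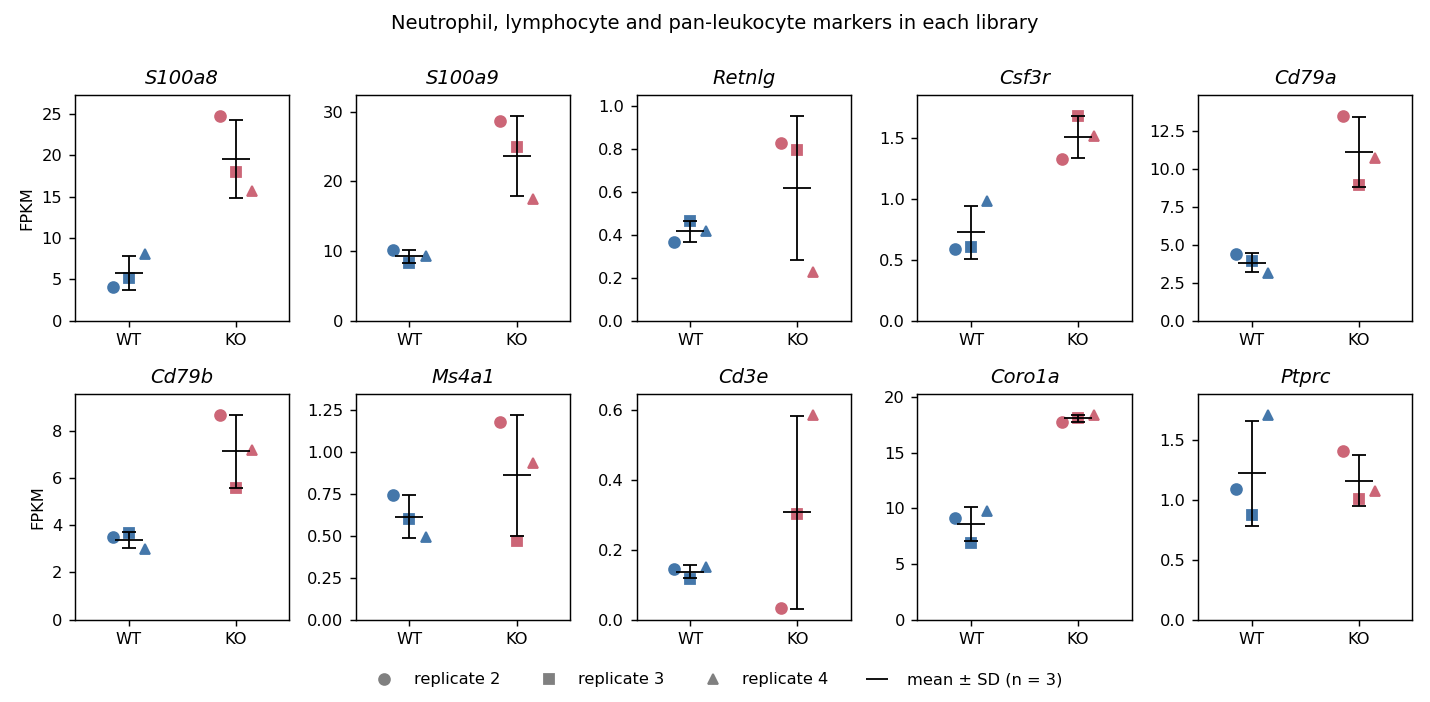
FPKM (vertical axes, each from 0 and on its own scale) of the 10 markers in the WT (blue) and KO (red) libraries, with the replicate number as symbol and mean ± SD (n = 3) in black. The KO libraries of S100a8, S100a9, Csf3r, Cd79a, Cd79b and Coro1a lie above all WT libraries, while the groups overlap for Retnlg, Ms4a1, Cd3e and Ptprc.

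Both calprotectin genes were higher in KO. S100a8 (gene ID 20201, chromosome 3 from 90669071 to 90670034, GRCm38) had 4.09, 5.22 and 8.09 FPKM in WT replicates 2, 3 and 4, and 24.8, 18.0 and 15.7 FPKM in KO replicates 2, 3 and 4. The lowest KO library was thus above the highest WT library, and the WT libraries spread more widely in proportion than the KO libraries. Mean S100a8 rose 3.36-fold, from 5.8 ± 2.06 to 19.5 ± 4.71 FPKM (SD, n = 3 per genotype; limma log2 fold change 1.61, SE 0.21, adjusted p = 0.000624). S100a9 (gene ID 20202), its neighbour on chromosome 3 from 90692630 to 90695721, had 10.1, 8.34 and 9.24 FPKM in WT and 28.7, 25 and 17.4 FPKM in KO. It rose 2.57-fold, with a log2 fold change of 1.25 (SE 0.16, limma adjusted p = 0.000549), and its WT libraries were close together. In reads, S100a8 went from 65, 80 and 125 in WT to 367, 262 and 222 in KO, so counting error is small beside these differences.

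Csf3r, which encodes the receptor for the granulocyte growth factor G-CSF, was much lower than the calprotectin genes and also rose. Csf3r (gene ID 12986, chromosome 4 from 126023441 to 126044975) had 0.592, 0.607 and 0.98 FPKM in WT and 1.33, 1.68 and 1.52 FPKM in KO, from 110 to 290 reads per library. The log2 fold change was 0.55 (SE 0.12, limma adjusted p = 0.00584), and the ratio of mean FPKM was 2.08. On recovered reads, a scale without the added 1, limma-voom gave Csf3r a log2 fold change of 1.09 (SE 0.24, adjusted p = 0.00218), in a fit that called 45.0% of tested genes.

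Retnlg, a resistin-like gene transcribed in granulocytes, was close to the limit of the depth. Retnlg (gene ID 245195, chromosome 16 from 48872608 to 48874498) had 9, 11 and 10 reads in WT and 19, 18 and 5 in KO, that is 0.365 to 0.463 FPKM in WT and 0.228 to 0.827 FPKM in KO. KO replicate 4 was below all WT libraries and the other KO libraries were above them. The exact Poisson 95% interval of the 5 reads, 1.62 to 11.7, reached into the range of the WT reads. Fitted without the expression filter, Retnlg had a log2 fold change of 0.17 (limma adjusted p = 0.551), and without KO replicate 4 it was 0.36 (limma adjusted p = 0.0362). On recovered reads the 95% interval ran from -1.26 to 2.01, so neither a large rise nor a fall was detectable at this depth.

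Other neutrophil genes moved in both directions, and 25 of the 32 in the table had the higher mean in KO. Of 33 listed genes, 32 were in the table and 12 were tested: 5 rose, 2 fell and 5 were not called; their median log2 fold change was 0.31 against -0.03 over all tested genes. Il1r2, the decoy receptor for interleukin 1, rose from 0.342 ± 0.304 to 1.1 ± 0.0234 FPKM (limma adjusted p = 0.00656), and Slpi, a protease inhibitor gene, from 0.533 ± 0.275 to 1.76 ± 0.574 FPKM (limma adjusted p = 0.00475). Both passed the filter only through their KO libraries. Pglyrp1, Clec4d and Lrg1 also rose (limma adjusted p = 0.013, 0.0193 and 0.035). Lrg1 lay at 77.6 to 112 FPKM, far above all other genes of the list, and its groups overlapped. Which cells transcribed Lrg1 was not tested. G0s2, a lipase inhibitor gene, fell from 4.35 ± 0.689 to 2.62 ± 0.0985 FPKM (limma adjusted p = 0.00347), and Mxd1, a transcription factor gene, fell from 3.87 ± 0.246 to 2.67 ± 0.213 FPKM (limma adjusted p = 0.00698). Neither G0s2 nor Mxd1 is particular to neutrophils. Short transcripts were higher in KO across the whole table, and with this length trend removed from each library 1 of the 12 rose, Il1r2, 1 fell, G0s2, and the median was 0.04. Slpi and Mxd1 were then not called (limma adjusted p = 0.0871 and 0.108). Mmp9, the gelatinase gene of neutrophil granules, had 0.797 to 4.72 FPKM in WT and 2.66 to 6.32 FPKM in KO, groups that overlapped (limma adjusted p = 0.107). Genes transcribed in immature neutrophils of the bone marrow were nearly silent. Ngp was listed at 0 in 5 libraries, with 10 reads in KO replicate 2, Camp and Elane were listed at 0 in 4 and 5 libraries, and Ltf had 10 to 32 reads. Prtn3, also listed, had 1, 0 and 5 reads in WT and 7, 16 and 19 in KO, without overlap. Without the filter its adjusted p was 0.0539 in limma and 0.0465 in limma-voom. Ly6g, which encodes the surface marker of mouse neutrophils, was listed at 0 in 5 of 6 libraries.

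S100a8 and S100a9 belong to a family of small calcium-binding proteins, of which 9 genes with names beginning S100a were tested. 8 of these 9 rose in KO and S100a11 was not called (limma adjusted p = 0.0873). The S100a8 and S100a9 folds of 3.36 and 2.57 stood above the folds of the 6 others that rose, which ran from 1.37 for S100a10 to 1.95 for S100a4. S100a6, S100a10 and S100a11 lay at 128 to 688 FPKM in these libraries, far above the 2 calprotectin genes. After the trend of fold change with transcript length had been removed, 3 of the 9 rose in limma: S100a8, S100a9 and S100a16.

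Both signalling chain genes of the B cell receptor rose. Cd79a (gene ID 12518, chromosome 7 from 24897497 to 24901858) had 4.39, 3.9 and 3.14 FPKM in WT and 13.5, 8.96 and 10.7 FPKM in KO. Every KO library had more than the highest WT library, and KO replicate 2 had the most. The mean of Cd79a rose 2.91-fold, from 3.81 ± 0.629 to 11.1 ± 2.3 FPKM (log2 fold change 1.32, SE 0.15, limma adjusted p = 0.000456). Cd79b (gene ID 15985, chromosome 11 from 106311341 to 106314562) had 3.49, 3.66 and 3.01 FPKM in WT and 8.64, 5.57 and 7.17 FPKM in KO. Its log2 fold change was 0.88 (SE 0.14, limma adjusted p = 0.00112) and the ratio of means 2.11. The KO libraries of Cd79b kept the same order as those of Cd79a.

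Ms4a1, which encodes the B cell surface protein CD20, was lower and was not called. Ms4a1 (gene ID 12482, chromosome 19 from 11249679 to 11266149) had 0.746, 0.601 and 0.494 FPKM in WT and 1.18, 0.469 and 0.932 FPKM in KO, from 52 to 133 reads. KO replicate 3 lay below all WT libraries and the other KO libraries above them. Fitted without the filter, its log2 fold change was 0.19 (95% interval -0.20 to 0.58, limma adjusted p = 0.511), and on recovered reads 0.40 (95% interval -0.39 to 1.20). The interval on reads included the log2 fold change of Cd79b on reads, 1.06, and whether Ms4a1 differed from Cd79a and Cd79b in its change was not tested.

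Of 25 further B cell genes, 21 were in the table and 6 were tested; 4 rose and limma called none of the 6 lower, and the median log2 fold change was 0.43. Ly6d, a surface protein gene of B lineage cells, rose from 2.26 ± 0.565 to 7.11 ± 2.34 FPKM (limma adjusted p = 0.00125). Fcmr, which encodes a receptor for IgM, rose from 1.32 ± 0.0933 to 2.4 ± 0.296 FPKM (limma adjusted p = 0.00272). Cd37, a tetraspanin gene, rose from 1.95 ± 0.339 to 3.15 ± 0.731 FPKM (limma adjusted p = 0.0235). Over all 21 genes, filtered or not, the mean was higher in KO for 19. The exceptions were Cd72 (1.39 ± 0.33 FPKM in WT and 0.866 ± 0.207 in KO, limma adjusted p = 0.0521) and Pax5, the transcription factor of B cell identity, at 0.156 and 0.146 FPKM on average. Jchain, a plasma cell gene, was listed at 0 in 5 of 6 libraries. With the length trend removed 2 of the 6 rose, among them Ly6d (limma adjusted p = 0.028), and Cd72 fell. Fcmr and Cd37 were then not called (limma adjusted p = 0.0576 and 0.141).

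Cd3e was the lowest of the 10 markers. Cd3e (gene ID 12501, chromosome 9 from 44998735 to 45009663) had 9, 7 and 9 reads in WT and 2, 17 and 32 in KO, or 0.118 to 0.15 FPKM in WT and 0.0349 to 0.586 FPKM in KO. KO replicate 2 had fewer reads than any WT library and KO replicate 4 had the most of all. The exact Poisson 95% intervals of these KO libraries, 0.242 to 7.22 and 21.9 to 45.2 reads, did not meet. Fitted without the filter the log2 fold change of Cd3e was 0.18 (limma adjusted p = 0.512), and on reads the 95% interval ran from -1.52 to 2.39. The partner chain gene Cd3g had 24, 4 and 8 reads in WT and 30, 8 and 63 in KO, also with the most in KO replicate 4. Cd3d had 11, 17 and 12 reads in WT and 28, 19 and 26 in KO, without overlap. Without the filter its adjusted p was 0.0484 in limma and 0.304 in limma-voom. Cd8a, which encodes a co-receptor chain of cytotoxic T cells, had 12, 9 and 11 reads in WT and 23, 0 and 47 in KO, again with the most in KO replicate 4. Its partner chain gene Cd8b1 had 5, 4 and 3 reads in WT and 21, 19 and 28 in KO, without overlap. Without the filter the adjusted p of Cd8b1 was 0.0103 in limma and 0.029 in limma-voom.

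Few T and NK cell genes reached the expression filter. Of 34 listed, 31 were in the table and 5 were tested. Cd2, an adhesion receptor of lymphocytes, rose from 0.74 ± 0.177 to 1.47 ± 0.434 FPKM (limma adjusted p = 0.019), and the chemokine gene Ccl5 from 0.698 ± 0.461 to 2.67 ± 1.59 FPKM (limma adjusted p = 0.0297). Cd2 passed the filter only through its KO libraries, and Ccl5 had 0.84 FPKM in KO replicate 4 against 3.54 and 3.63 FPKM in the other KO libraries. Lck, a kinase of T cell receptor signalling, Thy1 and Cd247 were not called (limma adjusted p = 0.263, 0.193 and 0.785). Of all 31 genes, 26 had the higher mean in KO. In limma without the filter 4 of the 31 rose, Cd3d, Cd8b1, Lat and Cd28, and none fell, while 17.4% of all genes were called. Of these, limma-voom without the filter called Cd8b1 and Lat (adjusted p = 0.029 and 0.0452) but not Cd3d and Cd28 (adjusted p = 0.304 and 0.0518). The median log2 fold change of the 5 tested genes was 0.19, and with the length trend removed none rose in limma and Thy1 fell. Thy1 lay at 11.8 to 15.1 FPKM and Cd247 at 2.3 to 3.32 FPKM, far above Cd3e at 0.0349 to 0.586 FPKM. Which cells transcribed Thy1 and Cd247 was not tested.

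Of the 2 pan-leukocyte markers, Coro1a rose and Ptprc was not called. Coro1a (gene ID 12721, chromosome 7 from 126699774 to 126704816) had 9.15, 6.93 and 9.76 FPKM in WT and 17.8, 18.1 and 18.4 FPKM in KO. Its KO libraries were nearly level, with an SD of 0.323 FPKM around a mean of 18.1, and the gene rose 2.1-fold (log2 fold change 1.00, SE 0.11, limma adjusted p = 0.000456). Ptprc (gene ID 19264, chromosome 1 from 138062859 to 138175756) had 1.09, 0.871 and 1.71 FPKM in WT and 1.41, 1.01 and 1.07 FPKM in KO. The groups overlapped, and the log2 fold change was -0.03 with a 95% interval of -0.36 to 0.30 (limma adjusted p = 0.895). That interval leaves out a change as large as that of Coro1a, whose own interval was 0.75 to 1.25. Within a library there were 3.08, 2.92 and 2.09 Coro1a reads per Ptprc read in WT and 4.64, 6.57 and 6.33 in KO. These ratios did not overlap between genotypes, with p = 0.1 in a two-sided exact permutation test, the smallest that 3 against 3 samples allow (0.15 adjusted over the 3 ratios tested).

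Of 28 further pan-leukocyte genes, all were in the table and 21 were tested; 11 rose and limma called none of the 21 lower, and the median log2 fold change was 0.44. Cd52, a small surface glycoprotein gene, rose from 13.4 ± 4.06 to 30.3 ± 2.13 FPKM (limma adjusted p = 0.00115). Rac2, a GTPase of blood cells, rose from 2.26 ± 0.505 to 4.34 ± 0.387 FPKM (limma adjusted p = 0.00178), Was, an actin regulator, from 1.48 ± 0.401 to 2.7 ± 0.485 FPKM and Arhgdib from 40.1 ± 3.6 to 50.7 ± 2.09 FPKM. With the length trend removed 2 of the 21 rose, Rac2 and Was. Hcls1, at 40.5 to 54.2 FPKM in all 6 libraries, did not differ between the genotypes beyond their spread (limma adjusted p = 0.842).

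**Figure D2:**
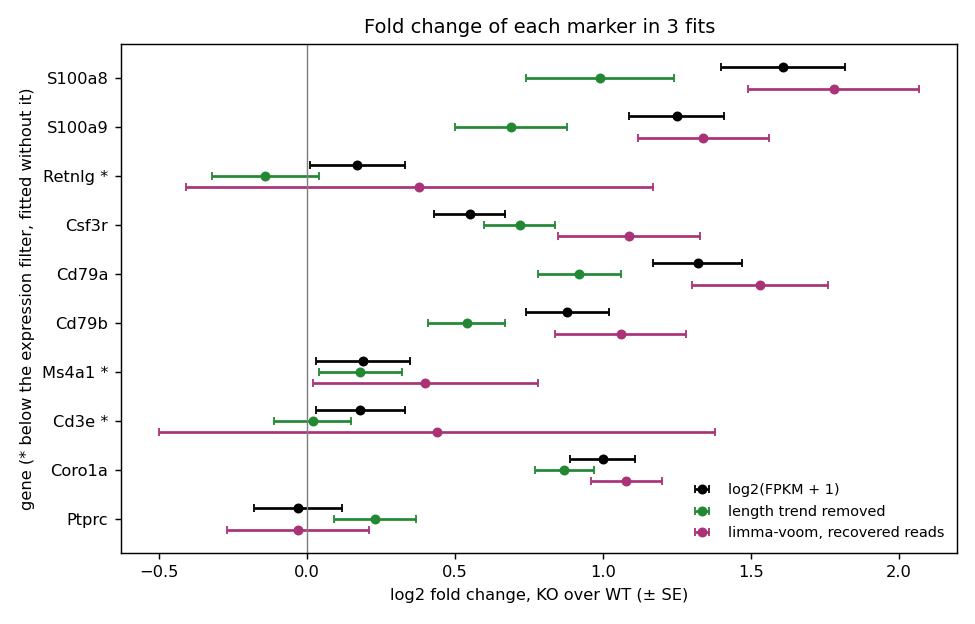
Log2 fold change of KO over WT (horizontal axis, ± SE) for the 10 markers in 3 fits: limma on log2(FPKM + 1), the same with the length trend removed, and limma-voom on recovered reads. The 6 called markers stay to the right of 0 in all 3 fits, with S100a8 at 1.61, 0.99 and 1.78, and Ptprc lies at -0.03, 0.23 and -0.03.

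The markers differ in length, with which the fold changes of all genes moved. The implied lengths, from the ratio of reads to FPKM, ran from 392 nt for S100a8 and 524 nt for S100a9, through 1002 nt for Cd79a, 1231 nt for Cd79b and 2156 nt for Coro1a, to 4633 nt for Csf3r and 5872 nt for Ptprc. Among tested genes within a factor of 1.25 of the length of S100a8, the median log2 fold change was 0.56, and near the length of Ptprc it was -0.25. The S100a8 fold change exceeded its median by 1.05, that of Cd79a by 0.92, Coro1a by 0.88, Csf3r by 0.72, S100a9 by 0.71, Cd79b by 0.55 and Ptprc by 0.22. With the length trend removed from each library, the 6 markers were again called higher, beside 9.26% of all tested genes called higher and 9.42% called lower. Their log2 fold changes then ran from 0.54 for Cd79b (limma adjusted p = 0.026) to 0.99 for S100a8 (limma adjusted p = 0.0293), with Coro1a at 0.87 (limma adjusted p = 0.00235). Csf3r went the other way, from 0.55 to 0.72 (limma adjusted p = 0.0062), and Ptprc from -0.03 to 0.23 (limma adjusted p = 0.259).

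**Figure D3:**
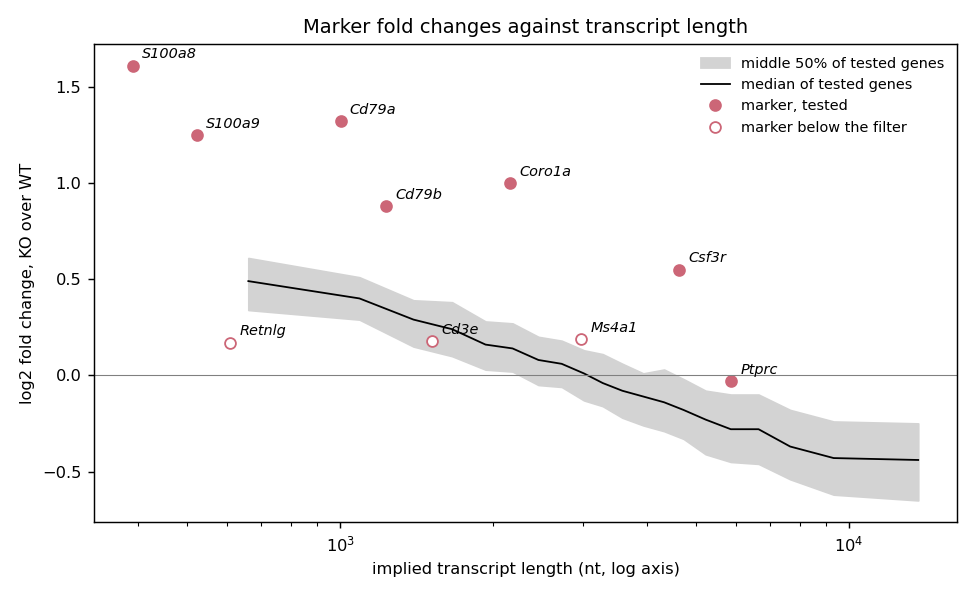
Log2 fold change of KO over WT (vertical axis) against implied transcript length in nt (horizontal log axis) for the 10 markers, filled if tested; the line and band are the median and middle 50% of all tested genes in 20 classes of length. S100a8, S100a9, Cd79a, Cd79b, Coro1a and Csf3r lie above the level of the band, as do Ptprc and, narrowly, Ms4a1. Cd3e lies within the band, and Retnlg at 608 nt lies below its level. The band starts at the median length of the shortest class, 660 nt.

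The markers were then compared library by library. Within each genotype they did not share a single order, though some markers were highest or lowest in the same library. In WT, Coro1a, Ptprc and Cd3e were lowest in replicate 3 and highest in replicate 4, and S100a8 and Csf3r were also highest in replicate 4. Cd79a, Cd79b and Ms4a1 were lowest in WT replicate 4. In KO, Cd79a, Cd79b and Ms4a1 were lowest in replicate 3 and highest in replicate 2, with KO replicate 2 above KO replicate 3 by 1.51-fold, 1.55-fold and 2.52-fold. S100a8, S100a9 and Retnlg were highest in KO replicate 2 and lowest in KO replicate 4. The Poisson 95% intervals of Cd3e in WT, on 7 to 9 reads, overlapped, as did those of Retnlg in KO, on 5 to 19 reads. The places of Cd3e in WT and Retnlg in KO may therefore be counting error. The deviations of Cd79a and Cd79b from their genotype means had a Pearson r of 0.927 over the 6 libraries on the log2 scale, those of S100a8 and S100a9 an r of 0.418, and those of Cd79a and S100a8 an r of -0.094. Those of S100a8 and Ptprc had an r of 0.818, and those of Cd79a and Csf3r an r of -0.881. These values are descriptions of 6 libraries that share their depth and preparation. By the same measure 205 genes had an r above 0.9 with S100a8 and 187 with Cd79a. These were counted among the 10806 tested genes, with predicted-gene and RIKEN names left out. The 3 most like S100a8 were Tmem109, St3gal1 and Lpcat4 (r = 0.993 to 0.999), and Btd was among those most like Cd79a (r = 0.993). How many genes would reach such an r by accident over 6 libraries was not tested.

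The wider lists were compared in the same way. Among the 19 B cell genes with at least 60 reads over the 6 libraries, 12 were lowest in KO replicate 3 and 1 was highest there. Among the 22 such T and NK cell genes 13 were lowest in KO replicate 3, against 35.9% of all tested genes. Pan-leukocyte genes had another pattern: 22 of 28 were highest in KO replicate 3, against 31.2% of all tested genes, 24 of 28 were lowest in WT replicate 3, against 52.8%, and 20 of 28 highest in WT replicate 4, against 33.5%. Neutrophil genes were highest in WT replicate 4 for 20 of 25 and highest in KO replicate 3 for 12 of 25. The 25 such monocyte, macrophage and dendritic cell genes had 21 at their highest in WT replicate 4 and 18 in KO replicate 3. S100a8 and S100a9 were highest in KO replicate 2, as were 7 of 25 neutrophil and 3 of 28 pan-leukocyte genes, against 34.3% of all tested genes.

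**Figure D4:**
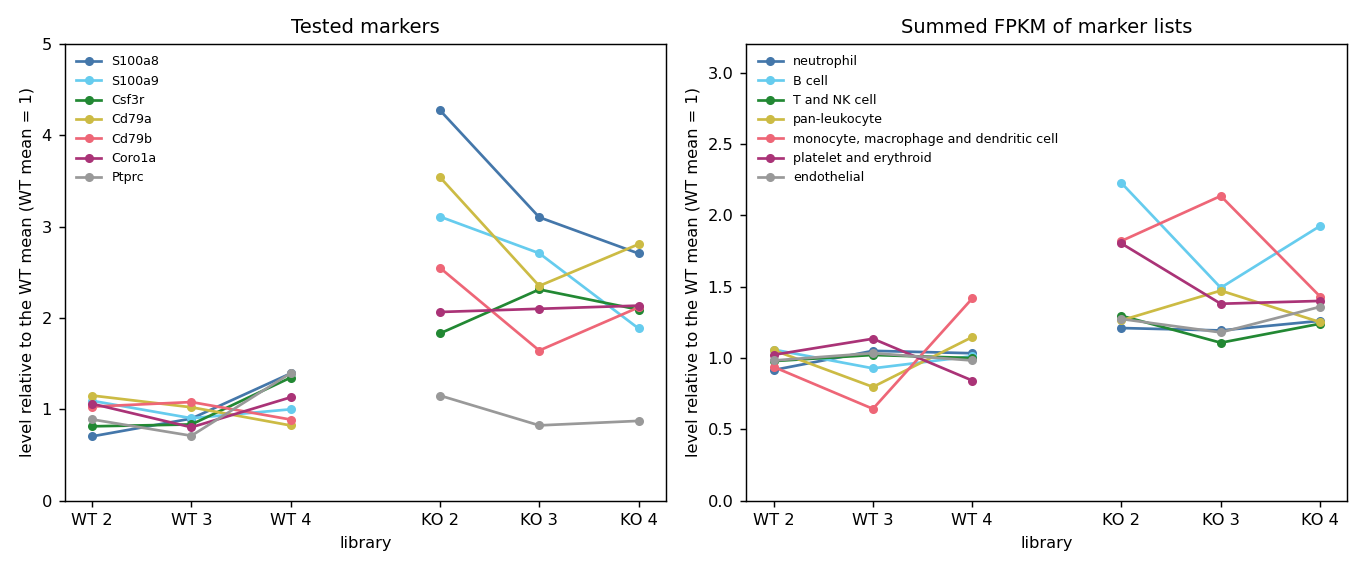
Level of each tested marker (left, FPKM) and summed FPKM of marker lists (right) in each library, relative to the WT mean of 1 (vertical axes from 0). Each sum is weighted to its highest genes. In WT replicate 2, Lrg1 gave 77.6 of 109 FPKM for neutrophils and Thy1 12.6 of 22.8 FPKM for T and NK cells. Fabp4 gave 5820 of 11500 FPKM for endothelium there. The endothelial sum was higher in KO, while limma called 7 of its 16 genes lower and 3 higher. Lines only join the points of a gene or list and imply no order of libraries; Cd79a and Cd79b dip in KO 3, where the macrophage list is highest.

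Pairs of markers from the same cell type were compared in reads. S100a8 made up 23.2% (Wilson 95% interval 18.7% to 28.5%), 31.9% and 39.6% of the S100a8 and S100a9 reads in the WT libraries, and 39.3%, 34.9% and 40.3% in KO. The groups overlapped (exact permutation p = 0.3 for the log2 ratio), and WT replicate 2 was below the KO libraries beyond counting error. Cd79a made up 50.6%, 46.5% and 45.9% of the Cd79a and Cd79b reads in WT and 56.0%, 56.7% and 54.9% in KO. Every KO share of Cd79a was above every WT share (exact permutation p = 0.1, the smallest possible, 0.15 adjusted over the 3 ratios). Cd79a, the shorter of these transcripts, had the larger share in every KO library and, at 50.6%, in WT replicate 2. Tested genes within a factor of 1.25 of its length had a median log2 fold change of 0.4, and those near Cd79b 0.33. The limma fit corrected for length put Cd79a at 0.92 and Cd79b at 0.54. Whether length had a part in the shift of this share was not tested. The number of calprotectin reads per Cd79 read (S100a8 and S100a9 over Cd79a and Cd79b) ranged from 0.763 to 1.17 in WT and from 0.782 to 1.27 in KO, so these overlapped between genotypes.

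Markers of other cell types moved beside the leukocyte markers. In the monocyte, macrophage and dendritic cell list 11 of 21 tested genes rose and 2 fell (median log2 fold change 0.54), and the summed level of the 28 genes in the table was 149 to 328 FPKM in WT and 331 to 494 FPKM in KO. Tyrobp, a signalling adaptor of myeloid and NK cells, rose from 14.1 ± 3.62 to 35.5 ± 5.92 FPKM (limma adjusted p = 0.000721), Aif1 rose from 1.38 ± 0.366 to 3.66 ± 0.709 FPKM and C1qc, a complement gene, from 8.04 ± 2.87 to 16.9 ± 2.21 FPKM. Zbtb46, a factor of dendritic cells that endothelium also transcribes, fell from 13.2 ± 0.786 to 8.95 ± 0.956 FPKM. Without the length trend 4 of these 21 rose, among them Tyrobp, Aif1 and C1qc, and limma called none lower, with Zbtb46 at an adjusted p of 0.223. In the platelet and erythroid list 7 of 9 rose and limma called none of the 9 lower, led by the platelet chemokine genes Ppbp (9.41 ± 2.11 to 19.9 ± 2.09 FPKM) and Pf4 (26.3 ± 9.25 to 59.5 ± 11.4 FPKM); its summed level was 299 to 403 FPKM in WT and 490 to 640 FPKM in KO. Hbb-bt, a globin gene, and Gp9, a platelet receptor gene, were also among the 7. With the length trend removed 2 of the 9 rose, Ppbp and Gp9, the median log2 fold change went from 0.54 to 0.06, and Pf4 was not called (limma adjusted p = 0.0946). For Hba-a1, Hba-a2, Hbb-bs and Hbb-bt, near-identical copies between which reads can be split, the log2 fold change was 0.01 to 0.04 with the length trend removed. Mural and fibroblast markers went down, 12 of 14 tested, from 480 to 625 FPKM in sum in WT to 356 to 551 in KO, with Abcc9, Pdgfrb, Col1a2 and Dcn the most clearly by p, and 10 of the 14 with the length trend removed. Of 8 tested cardiomyocyte genes 2 rose, Nppa and Myl2, 1 fell, Myh6, and 5, among them Mb, were not called. Only Myl2 was called, as higher, with the length trend removed, and Nppa and Myh6 had limma adjusted p = 0.438 and 0.554. The part of these cell types in the changes of the 10 markers was not tested.

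Genes of leukocyte recruitment were lower in KO or not called. Of 14 listed genes for neutrophil growth factors, chemokines, adhesion molecules and calprotectin receptors, 13 were in the table and 9 were tested, and 4 fell while limma called none of the 9 higher. Selp and Sele, the P- and E-selectins on which leukocytes roll, fell from 23.2 ± 3.08 to 12.5 ± 1.62 FPKM and from 6.79 ± 0.301 to 3.69 ± 0.783 FPKM (limma adjusted p = 0.000677 and 0.00148). Vcam1, the adhesion partner of lymphocyte and monocyte integrins, fell from 26.7 ± 3.24 to 19.5 ± 1.08 FPKM, and Tlr4, a receptor for calprotectin, from 3.3 ± 0.583 to 1.67 ± 0.206 FPKM (limma adjusted p = 0.00212). With the length trend removed 5 of the 9 fell, and Tlr4 was no longer called (limma adjusted p = 0.0818). The neutrophil chemokine gene Cxcl1 had 3.19 to 4.81 FPKM in WT and 4.73 to 5.5 FPKM in KO, groups that overlapped, and Csf3, the gene of G-CSF, was at 0 to 0.14 FPKM. Of 16 endothelial markers 7 fell and 3 rose (median log2 fold change -0.19), and Vwf, Ptprb, Kdr and Tek were the 4 that fell with the smallest p. Of these 16, 5 fell and limma called none higher with the length trend removed.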

How the data were processed

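The authors deposited FPKM for each gene and library and, per the file headers, a second table with the mean normalized signal of each genotype, a fold change as a ratio, a log2 fold change, a p-value and a q-value. Per the submitters' processing notes, which give no role or order, the build was mm10 and the tools were DESeq2 1.22.1, GATK 4.0.11.0, HISAT2 2.1.0, featureCounts 1.6.2, fastp 0.19.3, StringTie 1.3.4d and Cufflinks.

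Reads were recovered by solving for the library factors that link FPKM to the deposited group means; all libraries gave 100.0% whole values (tolerance 0.05, values to 1000 reads). The 3207 genes outside the second table have no reads. Intervals on reads cover counting error only. limma 3.58.1 (R 4.3.3, trend, genotype only) was fitted on log2(FPKM + 1) with Benjamini-Hochberg adjustment over all tested genes, and tested on simulated data. For the length trend, each library's deviation from the gene means was smoothed on log2 implied length (lowess, span 0.3) and subtracted. Python 3.11.15 (scipy 1.17.1, numpy 2.4.6, matplotlib 3.10.9, pandas 2.3.3) served for the rest. Coordinates are from the NCBI annotation of GRCm38.p6, matched by gene ID for all 10.

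The members, the 10 lists (206 of 216 symbols in the table) and the tests were chosen with earlier results of these data known. Named were the 10 members, up to 4 tested genes per list with the smallest p, and the 3 genes most like S100a8 and Cd79a, of which some are not reported here; other genes, such as partner chains, defining markers and exceptions, were named after their values were seen. The immunoglobulin and T cell receptor constant genes on the lists had no entry under their symbols, so they were not analysed here. Other settings were quantile and median-ratio normalization, other filters and pseudocount, removal of the length trend, each library left out, a replicate block, and, added after seeing the data, limma-voom on recovered reads.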

Additional observations from a re-analysis of the deposited data

How the results depend on the processing

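The count of called markers was 6 of 7 in the main test, 6 with each library left out in turn (lowest 6, highest 6), and 6 without an expression filter; it changed by more than 1.5 times only with the length trend removed and the replicate block together, where 3 were called (Csf3r, Cd79a and Coro1a). In that fit the adjusted p was 0.0833 for S100a8, 0.0589 for S100a9 and 0.0649 for Cd79b. Same-numbered WT and KO libraries deviated from their group means with r = -0.19, -0.35 and -0.22 across genes, and differently numbered ones with r = 0 to 0.2. Such values cannot show whether libraries were handled in pairs by number, which was not tested. With the replicate block alone 6 markers and 3749 genes were called. Over all genes 4772 were called, 3392 to 4380 with a library left out, 2019 with the length trend removed and 716 with that and the replicate block. Of the 3 markers below the filter none was called in limma (0 at an unadjusted p under 0.05, and 0 in limma-voom); leaving out each library gave 0 to 1, the 1 being Retnlg without KO replicate 4. Retnlg had a log2 fold change of -0.14 with the length trend removed, with or without the replicate block. The sign of Ptprc was not fixed: 0.06 with quantile normalization, 0.01 with median-ratio scaling, 0.23 with the length trend removed (also with the replicate block), 0.12 without WT replicate 4, 0.02 without KO replicate 3 and 0.00 without KO replicate 4, none of them called. The cause of these shifts was not tested. The count models planned for recovered reads were not run, because the deposited unit is FPKM, and limma-voom was used in their place. Reads under about 30 per library limit Retnlg and Cd3e, and Csf3r and Ptprc drop out at a filter of 5 FPKM.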
